A study of Caenorhabditis elegans with 6 samples.

Results

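The 9 genes described here, *hsp-16.1*, *hsp-16.11*, *hsp-16.2*, *hsp-16.41*, *hsp-16.48*, *hsp-12.3*, *hsp-12.6*, *hsp-43* and *sip-1*, encode small heat shock proteins of *Caenorhabditis elegans*. They were chosen by gene name from the 23470 genes that the deposited tables list. All 9 were listed in both tables, and all 9 passed the filter on low values in both comparisons. RNA of whole worms was sequenced from 3 groups with 2 libraries each: worms that overexpressed *hlh-30*, *hlh-30* knockout worms, and controls that the labels call WT and GMC101. *hlh-30* encodes the worm counterpart of TFEB, a transcription factor of autophagy and lysosome genes. The question put to the RNA was how gain and loss of *hlh-30* alter expression in worms that make Aβ, the peptide that aggregates in Alzheimer's disease. According to the methods, the worms grew at 20 °C to the young adult stage and were then kept at 25 °C for 24 h to induce Aβ, in every group, and the labels give day 1 of adulthood.

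All groups carried Aβ, so the controls were not wild-type worms. In the strain list, GMC101 carries human Aβ under the promoter of *unc-54*, a myosin gene of body wall muscle, together with an intestinal *mtl-2*p::GFP marker. The overexpression worms carry *hlh-30*p::*hlh-30*::GFP, in which the gene's own promoter drives a fusion protein, added by crossing. The knockout, allele *syb6883*, lacks the first 4 exons of *hlh-30* and was made in the strain that holds the Aβ array. The design text of the series names CL4176, another Aβ strain, in place of GMC101. No source says whether the 2 libraries of a group came from separate cultures, so p-values measure only the spread between these libraries, which may be technical. In whole worms, fewer cells of a type and less RNA per cell cannot be told apart. No group without the 25 °C step and no heat-shocked group is among the 6 libraries, so the levels below describe worms after this step only.

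Small heat shock proteins are built around an alpha-crystallin domain. Many of them act as chaperones, which hold unfolding proteins without using ATP and pass them to ATP-driven chaperones of the HSP70 class. Whether each gene described here, *hsp-12.6* included, encodes a protein with this activity was not tested. The *hsp-16* genes are the classic heat-induced set of the worm, under the heat shock factor HSF-1, and their proteins are known to associate with Aβ in worms. *hsp-12.6* is a known target of DAF-16, the FOXO factor of the insulin pathway. *sip-1* encodes a family member made in oocytes and embryos.

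The *hsp-16* members lie in head-to-head pairs on chromosome V, which bears on how far their reads can be told apart. In the WBcel235 annotation (Ensembl 115), *hsp-16.2* (chrV:1804334-1804957, minus strand) and *hsp-16.41* (chrV:1805178-1805875, plus strand) point away from each other, with 221 bases between their annotated starts. A second cluster spans 3312 bases and holds *hsp-16.1* (chrV:9087293-9087782, minus strand), *hsp-16.48* (chrV:9088131-9088617, plus strand), *hsp-16.49* (chrV:9089280-9089766, minus strand) and *hsp-16.11* (chrV:9090077-9090604, plus strand). Starts there were 349 bases apart in the *hsp-16.1* and *hsp-16.48* pair and 311 bases apart in the *hsp-16.11* and *hsp-16.49* pair. The annotation gives *hsp-16.11* the name *hsp-16.1* and *hsp-16.49* the name *hsp-16.48*, because the cluster is an inverted repeat of near-identical genes. How reads that match both copies were assigned is not given in the sources used here, so each value of *hsp-16.1*, *hsp-16.11* and *hsp-16.48* is uncertain on its own, and their sums are given too.

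The other members are spread over 3 chromosomes. *hsp-12.3* (chrIV:9444791-9445507) and *hsp-12.6* (chrIV:9446229-9447228) lie on the minus strand of chromosome IV, one behind the other, with 721 bases between them, and one piRNA locus, *21ur-14949*, lies inside *hsp-12.6* on the same strand. *hsp-43* (chrX:6233151-6235543, minus strand) is the longest of the 9 genes, with 6 or 7 exons against 3 in *hsp-12.6* and 2 in each of the other members. *sip-1* (chrIII:10506106-10506801, minus strand) starts 257 bases from *sly-1* in a head-to-head arrangement, and a short noncoding gene on the other strand, *F43D9.8*, overlaps its 5′ end. Counting by strand is not stated, so reads from that overlap cannot be assigned to one strand.

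**Figure D1:**
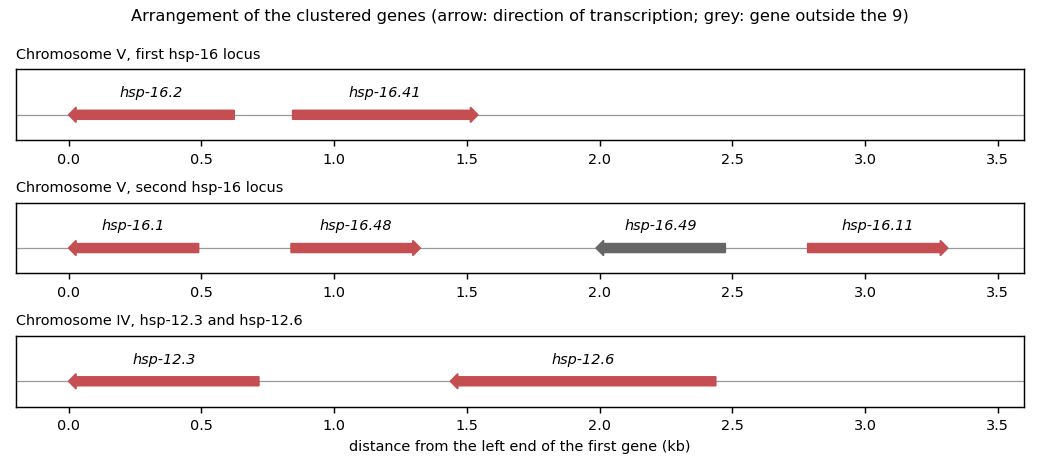
Positions of the clustered small heat shock protein genes, as distance in kb from the left end of the first gene of each row. Arrows point in the direction of transcription, red arrows are genes among the 9 and the grey arrow is *hsp-16.49*. The *hsp-16* genes sit in head-to-head pairs, and *hsp-12.3* and *hsp-12.6* follow each other on one strand.

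The deposited values are normalized reads, that is, reads on a gene divided by a size factor of the library, and each comparison has its own table. Depth was even, from 18097925 to 19300834 reads on genes per library, and the 10 highest genes took between 6.40% and 7.01% of them. *hlh-30* itself had 6022 and 5693 normalized reads in overexpression libraries, against 3102 and 3315 in control libraries (log2 fold change 0.87, adjusted p = 3.97e-06, limma). In knockout libraries it had 2104 and 3005 normalized reads, against 3049 and 3258 in control libraries in that table. The deposited coordinates of *hlh-30* span chrIV:4015615-4019039, against chrIV:4014793-4034951 (minus strand) in the annotation. How many of the deleted exons lie in the counted span was not determined, so the knockout value does not check the label. Knockout libraries differed more from each other than the other libraries did: the median size of the log2 difference between the 2 libraries of a group was 0.294 over 15749 genes in the knockout and 0.142 in controls of the same table, and 0.145 in the overexpression libraries and 0.143 in controls over 15918 genes. Labels do not tell which knockout column is which replicate, so knockout libraries are called first and second by their place in the table. *rol-6*, a cuticle collagen gene whose dominant allele is a common marker in worm transgenes, had 1029.8 and 1012 normalized reads in overexpression libraries, against 31.7 and 14.2 in control libraries (log2 fold change 5.52, adjusted p = 6.59e-07, limma). In the strain list, *rol-6(su1006)* belongs to the array of CL4176, the strain of the design text, in which the *myo-3* promoter drives Aβ. A cross of CL4176 with *hlh-30*::GFP carries it too. GMC101 and its cross with *hlh-30*::GFP alone do not list it. A further GMC101 cross, with *hlh-30*::GFP and an *lgg-1* reporter, lists pRF4, the plasmid given with *rol-6(su1006)* in CL4176. Which Aβ array the overexpression libraries carry was not tested, so a difference in array cannot be told apart from the overexpression of *hlh-30*.

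Levels of the 9 genes spanned about 3 orders of magnitude in every library. Per kb of gene length, *sip-1* was the highest, with 52449 and 51333 normalized reads per kb in overexpression libraries and 64109 and 60599 in control libraries. It ranked between 29th and 36th of all listed genes by normalized reads in the 4 libraries of that table. *hsp-16.2* and *hsp-16.41* came next, between 3186 and 3794 normalized reads per kb in the same 4 libraries, and the values of the pair overlapped. *hsp-43* followed at 540 to 711 normalized reads per kb. *hsp-12.3* and *hsp-12.6* had between 132 and 387 normalized reads per kb, with overlapping values in the control libraries. The 3 members of the inverted repeat had 46.5 to 159 normalized reads per kb, or 19 to 79 reads in a library, and were the lowest in the other 3 libraries, while in the second overexpression library *hsp-16.11* (159) lay above *hsp-12.3* (148) and *hsp-12.6* (132). Their counting error alone is wide: the 95% exact Poisson interval of 19 reads ran from 11.4 to 29.7 reads, and such intervals cover counting error only. Together the 9 genes took between 0.212% and 0.242% of the reads in the overexpression table, and most of these were *sip-1*.

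**Figure D2:**
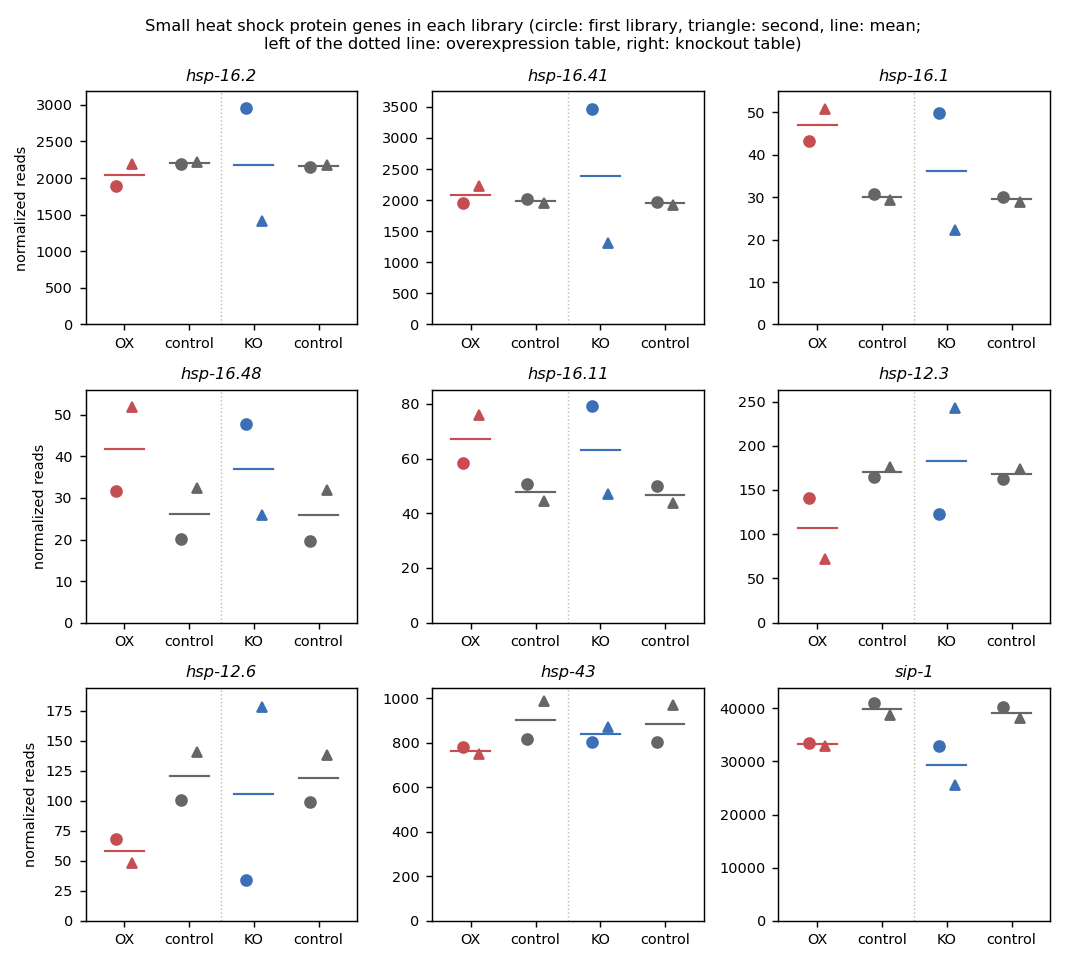
Normalized reads (linear axis from 0) of each of the 9 genes by library, with overexpression (OX) and its controls left of the dotted line and knockout (KO) and the same controls, as scaled in that table, right of it. Circles are first libraries, triangles second libraries and lines group means. *hsp-12.6* and *sip-1* lay lower in both overexpression libraries than in both controls, and the 2 knockout libraries stood on opposite sides of the controls for *hsp-16.2*, *hsp-16.41*, *hsp-16.1*, *hsp-12.3* and *hsp-12.6*.

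The first comparison asked which small heat shock protein genes differ when *hlh-30* is overexpressed. *hsp-12.6* and *sip-1* fell in overexpression worms, to 0.485-fold and 0.832-fold of control, and none of the 9 genes passed the test in the higher direction. The heat-induced pair *hsp-16.2* and *hsp-16.41* stayed within 0.12 of control on the log2 scale without passing the test. One of 9 genes, *hsp-12.6*, was called at an adjusted p under 0.05 and a change of at least 2-fold, beside 1.86% of the 15918 genes tested. At an adjusted p under 0.05 alone the count was 2 of 9, beside 14.8% of all genes, and both were lower, beside 8.06% of all genes lower and 6.71% higher. In 7 of the 9 genes the groups did not overlap, 5 lower and 2 higher, beside 57.4% of all genes tested. Their median log2 fold change was -0.12, beside -0.0016 for all genes tested. With 2 libraries against 2, an exact permutation test of one gene cannot go below p = 0.333, so every p here comes from limma's fit across all genes. Log2 fold changes are on the scale of log2(normalized reads + 1), which understates changes of low genes.

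*hsp-12.6* had 68.1 and 48.0 normalized reads in overexpression libraries, against 100.5 and 141 in control libraries. Both overexpression libraries lay below both controls. The log2 fold change was -1.04 ± 0.27 (SE, n = 2 each; adjusted p = 0.0197, limma), and the value lies close to the 2-fold limit. This call was lost without control replicate 1 (adjusted p = 0.306), without control replicate 2 (0.296) and without overexpression replicate 2 (0.0643), in limma fits in which the lone library was assumed to vary like the other group. The fold change ranged from -1.29 to -0.80 over the 4 libraries left out in turn.

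*sip-1* had 33568 and 32853 normalized reads in overexpression libraries, against 41029.8 and 38783.5 in control libraries. The overexpression libraries lay close together and below both controls. The log2 fold change was -0.26 ± 0.046 (SE, n = 2 each; adjusted p = 0.00275, limma), the smallest adjusted p of the 9 genes on a change of 16.8% in the group means. Without control replicate 1 (adjusted p = 0.306) and without control replicate 2 (0.235) it no longer passed, as was the case for every gene of the table when a control library was left out. The fold change itself moved only between -0.31 and -0.22. Because *sip-1* holds most of the reads of the family, the sum over the 9 genes followed it, at 38523 and 38309.7 normalized reads in overexpression libraries, against 46414 and 44372 in control libraries. Without *sip-1* the sum over the other 8 genes was 4955 and 5457 in overexpression libraries, against 5384 and 5588 in control libraries, and these groups overlapped.

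*hsp-12.3*, the neighbour of *hsp-12.6*, had 141 and 72.0 normalized reads in overexpression libraries, against 165.0 and 176 in control libraries. Both overexpression libraries were below both controls, the second far more than the first. The log2 fold change was -0.75 ± 0.27 (SE, n = 2 each) with an adjusted p of 0.0787 (limma), so it did not pass. The 2 overexpression libraries differed by 0.96 on the log2 scale, a difference that 3.72% of all genes reached or exceeded between these libraries. Without overexpression replicate 1 the log2 fold change was -1.23 (adjusted p = 6.83e-05, limma), and without overexpression replicate 2 it was -0.27 (adjusted p = 0.556, limma), so the value rests on the second library. *hsp-43* had 778 and 749 normalized reads in overexpression libraries, against 815 and 985 in control libraries (log2 fold change -0.23 ± 0.099, SE; adjusted p = 0.142, limma).

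The abundant *hsp-16* pair gave no call. *hsp-16.2* had 1886 and 2189.9 normalized reads in overexpression libraries, against 2191 and 2219 in control libraries. The second overexpression library was within 1 normalized read of the lower control, and the first lay below. Its log2 fold change was -0.12 ± 0.075 (SE, n = 2 each; adjusted p = 0.338, limma), and among the settings tried it passed only without overexpression replicate 2 (-0.23, adjusted p = 0.0492). *hsp-16.41* had 1948 and 2219.6 normalized reads in overexpression libraries, against 2011 and 1961 in control libraries, so one overexpression library lay below and one above both controls. Its log2 fold change was 0.07 ± 0.073 (SE, n = 2 each; adjusted p = 0.598, limma). The pair summed to 3834 and 4409.5 normalized reads in overexpression libraries, against 4201 and 4179.7 in control libraries, which overlapped.

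Within this pair the balance of reads was not the same in all libraries. The ratio of *hsp-16.41* to *hsp-16.2* reads was 1.03 and 1.01 in overexpression libraries, against 0.918 and 0.884 in control libraries. The 95% counting interval of the first overexpression library ran from 0.971 to 1.10 and that of the second from 0.957 to 1.07, while those of the controls ran from 0.863 to 0.977 and from 0.832 to 0.940. In knockout libraries the ratio was 1.17 in the first and 0.923 in the second. The 2 knockout libraries thus bracketed the overexpression values, and these ratios were not tested between groups.

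The inverted-repeat genes were measured from few reads and none of them passed the test. *hsp-16.1* had 43.2 and 50.9 normalized reads in overexpression libraries, against 30.7 and 29.4 in control libraries. *hsp-16.11* had 58.5 and 75.8 in overexpression libraries, against 50.8 and 44.6 in control libraries. *hsp-16.48* had 31.7 and 51.8 in overexpression libraries, against 20.1 and 32.4 in control libraries. The first 2 of these genes did not overlap between groups and the third did. Their log2 fold changes were 0.63, 0.48 and 0.65, with SE of 0.32, 0.28 and 0.39 and adjusted p of 0.228, 0.296 and 0.308 (limma). With *hsp-16.1* and *hsp-16.11* summed before the fit, so that the split of shared reads no longer matters between them, the log2 fold change was 0.54 with an adjusted p of 0.132, and *hsp-16.48* summed with *hsp-16.49* gave 0.39 with an adjusted p of 0.397. The 4 genes of the repeat together had 172 and 244 normalized reads in overexpression libraries, against 145 and 149 in control libraries.

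The ratio between the 2 *hsp-16* loci was lower in both overexpression libraries than in both controls. Reads of *hsp-16.2* and *hsp-16.41* were 22.3 and 18.1 times those of the 4 repeat genes in overexpression libraries, against 29.0 and 28.1 times in control libraries and, in knockout libraries, 27.4 and 23.9 times. The 95% counting intervals of the overexpression libraries ran from 19.2 to 25.9 and from 15.9 to 20.5, and those of the controls from 24.5 to 34.4 and from 23.8 to 33.1. The first overexpression library thus overlapped the controls within counting error and the second did not, and the ratio was not tested.

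**Figure D3:**
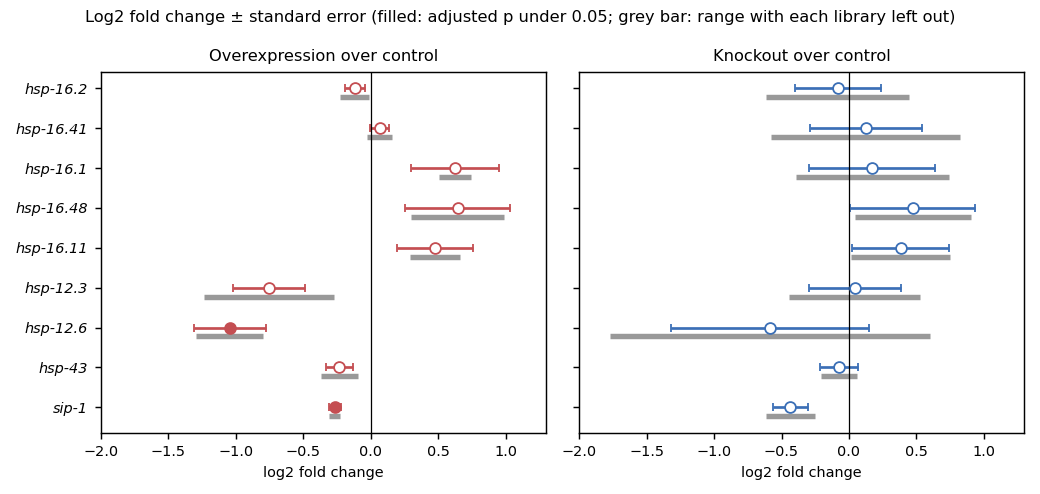
Log2 fold change of each gene over control with its standard error, for overexpression on the left and knockout on the right, each from 2 libraries against 2. Filled points passed an adjusted p of 0.05, and grey bars span the values with each of the 4 libraries left out in turn. *hsp-12.6* (-1.04) and *sip-1* (-0.26) passed in overexpression, and the left-out ranges in knockout crossed 0 for 6 of the 9 genes.

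The second comparison asked which of these genes differ when *hlh-30* is lost. None of the 9 genes passed the test in knockout worms, and 1 of 9, *sip-1*, had an unadjusted p under 0.05, beside 11% of the 15749 genes tested. edgeR on the reads recovered from the table passed 0 of the 9 genes as well. DESeq2 on these reads also passed 0, but it gave no adjusted p for *hsp-16.1*, *hsp-16.11* and *hsp-16.48*. Over all genes 0.0127% passed an adjusted p of 0.05, and the share was 0.0127% with the 2-fold limit, which is 2 genes in each case. In 1 of 9 genes the groups did not overlap, beside 45.7% of all genes. Their median log2 fold change was 0.04, beside 0.0014 for all genes tested.

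*sip-1* had 32951 and 25545 normalized reads in knockout libraries, against 40322.5 and 38117 in control libraries. Both knockout libraries lay below both controls, as the only one of the 9 genes with this pattern. The log2 fold change was -0.43 ± 0.13 (SE, n = 2 each; adjusted p = 0.407, limma). It was lower than control with each library left out, from -0.62 to -0.25. The overexpression and knockout comparisons share the 2 control libraries, so the lower values of *sip-1* in both are not independent of each other, and the difference between the 2 effects was not tested.

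For the *hsp-16* and *hsp-12* genes the 2 knockout libraries lay far apart. *hsp-16.41* had 3461 and 1307 normalized reads in knockout libraries, against 1976 and 1927 in control libraries. *hsp-16.2* had 2954 and 1415 in knockout libraries, against 2153 and 2180.4 in control libraries. In both genes the first knockout library was above both controls and the second below both. *hsp-16.1* did the same, with 49.9 and 22.2 in knockout libraries, against 30.1 and 28.9 in control libraries. *hsp-16.11* had 79.4 and 47.2 in knockout libraries, against 49.9 and 43.8 in control libraries. *hsp-16.48* had 47.8 and 25.9 in knockout libraries, against 19.8 and 31.9 in control libraries, and in these 2 genes the second knockout library lay between the controls. The 5 log2 fold changes lay between -0.08 and 0.47, with adjusted p between 0.681 and 0.931 (limma).

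*hsp-12.6* and *hsp-12.3* ran the other way. *hsp-12.6* had 33.6 and 178 normalized reads in knockout libraries, against 98.8 and 138 in control libraries, so the first knockout library was the lowest and the second the highest of the 4. *hsp-12.3* had 123 and 242 in knockout libraries, against 162 and 173 in control libraries, in the same order. The log2 fold changes were -0.59 ± 0.73 and 0.04 ± 0.34 (SE, n = 2 each; adjusted p = 0.766 and 0.969, limma). *hsp-43* had 804 and 869.9 in knockout libraries, against 801 and 968 in control libraries (log2 fold change -0.07, adjusted p = 0.852, limma). Without the second knockout library *hsp-12.6* was called (log2 fold change -1.77, adjusted p = 2.67e-06, limma), and without the first it was 0.60 higher than control (adjusted p = 0.0700). *hsp-16.41* likewise was 0.83 higher without the second knockout library and -0.58 without the first, each with an adjusted p under 0.05 (1.46e-23 and 1.43e-09). Those fits take their spread from the 2 controls alone, so they describe one knockout library each and not the genotype.

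The size of these gaps can be read against the gaps of all genes between the same libraries. Between the first and second knockout library, *hsp-12.6* differed by -2.37 on the log2 scale, a gap reached by 151 of 15749 genes (0.959%). *hsp-16.41* differed by 1.40, reached by 3.97% of genes, *hsp-16.1* by 1.13 (6.58%) and *hsp-16.2* by 1.06 (7.65%). *hsp-16.48* and *hsp-16.11* differed by 0.86 and 0.74, which 12.24% and 15.8% of genes reached. *hsp-12.3* differed by -0.97 (9.36%), *sip-1* by 0.37 (40.9%) and *hsp-43* by -0.11 (78.4%). Of the family members outside the 9, *hsp-16.49*, *hsp-17* and *hsp-12.1* were also at least 2-fold higher in the first knockout library: by 1.57, 1.45 and 1.26 on the log2 scale. The remaining ones differed by less than 2-fold and in both directions. The log2 differences were 0.38 for *hsp-12.2*, 0.20 for *hsp-25* and 0.13 for *F08H9.4*. For *Y55F3BR.6*, *ZK1128.7* and *F08H9.3* they were -0.016, -0.62 and -0.66. Between controls the same differences were 0.04 for *hsp-16.41*, -0.02 for *hsp-16.2*, 0.03 for *hsp-16.49* and 0.04 for *hsp-17*, and *hsp-12.1*, at 15.6 and 6.97 normalized reads in controls, differed by 1.06. All genes of at least a 2-fold gap made up 8.81% in the knockout libraries, against 3.88% in control libraries.

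**Figure D4:**
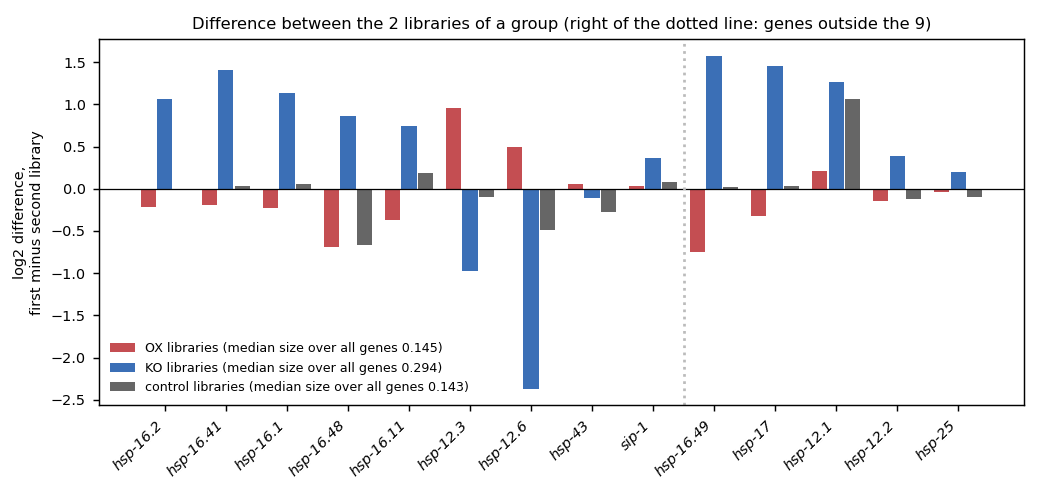
Log2 difference between the first and the second library within the overexpression (OX), knockout (KO) and control groups, for the 9 genes and, right of the dotted line, 5 other family members. The *hsp-16* genes were 0.74 to 1.57 higher in the first knockout library and *hsp-12.6* was lower there (-2.37), while the *hsp-16.2* and *hsp-16.41* bars of the controls were near 0. Not drawn are the knockout differences of *F08H9.3* (-0.66), *ZK1128.7* (-0.62), *Y55F3BR.6* (-0.016) and *F08H9.4* (0.13).

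Markers of tissues moved between the knockout libraries as well. The 14 oocyte and early embryo genes summed to 222047 and 151526 normalized reads in knockout libraries, against 209238 and 201107 in control libraries, and the 8 intestine genes to 91120.1 and 42863 in knockout libraries, against 43733 and 48452 in control libraries. The 8 body wall muscle genes summed to 143848 and 139969 in knockout libraries, against 166546 and 165002 in control libraries. The 9 sperm genes summed to 7852 and 8742 in knockout libraries, against 7344 and 6205 in control libraries, and the 6 hypodermis genes to 7083 and 7677 in knockout libraries, against 7112 and 6703 in control libraries. No gene of these lists was at 0 in all libraries. Of their 45 genes, 44 were tested in knockout, and 0 passed with limma. At an unadjusted p under 0.05 in limma there were 10, beside 11% of all genes tested. edgeR passed 0, and DESeq2 passed 1, the intestine gene *mtl-2*. The part of tissue makeup in the gaps of the *hsp-16* and *hsp-12* genes was not tested.

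In the overexpression comparison tissue markers differed too, beside the lower *sip-1* and *hsp-12.6*. Of all genes tested, 8.06% fell and 6.71% rose. Of the 14 oocyte and embryo genes, 2 fell and none rose (sums of 192131 and 198973 normalized reads in overexpression libraries, against 212908 and 204625 in control libraries). Of the 8 body wall muscle genes 6 fell (137523 and 136974 in overexpression libraries, against 169467 and 167889 in control libraries), and of the 9 sperm genes 6 fell (4832 and 5218 in overexpression libraries, against 7473 and 6313 in control libraries). Of the 8 intestine genes 6 rose (44222 and 56637 in overexpression libraries, against 44500.2 and 49300 in control libraries). Of the 6 hypodermis genes 1 rose, which was *rol-6*. The hypodermis sums were 8031 and 8183 in overexpression libraries, against 7237 and 6820 in control libraries. *rol-6* alone had 1029.8 and 1012 of these in overexpression libraries, against 31.7 and 14.2 in control libraries. The higher hypodermis sum thus rests on *rol-6* and does not show more RNA of this tissue. The part of these markers in the lower *sip-1* and *hsp-12.6* was not tested.

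The remaining alpha-crystallin genes of the worm gave no call in either comparison. All 9 of them (*hsp-12.1*, *hsp-12.2*, *hsp-16.49*, *hsp-17*, *hsp-25*, *F08H9.3*, *F08H9.4*, *Y55F3BR.6* and *ZK1128.7*) were tested, and 0 passed an adjusted p of 0.05 in overexpression or in knockout with limma, with 0 at an unadjusted p under 0.05 in either. Their median log2 fold change was 0.02 in overexpression and -0.03 in knockout. With edgeR 0 passed in either comparison. DESeq2 also passed 0, but its filter gave no adjusted p to genes of few reads. In both comparisons that filter covered *hsp-16.11*, and hence the list genes with fewer reads than it, such as *hsp-16.49*. The median of the list in knockout was 0.27 without the second knockout library and -0.024 without the first.

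Several ATP-driven chaperones and co-chaperones fell in overexpression worms by less than 2-fold. Of 23 tested genes of the heat shock factor, its regulators and other chaperones, 9 fell, 1 rose and 13 did not pass. Beside them, 8.06% of all genes tested fell and 6.71% rose. The median log2 fold change of the 23 was -0.17, and none was past the 2-fold limit. The constitutive HSP70 gene *hsp-1* had 34113 and 32942 normalized reads in overexpression libraries, against 43335 and 42342 in control libraries (log2 fold change -0.35, adjusted p = 0.00045, limma). *daf-21*, the HSP90 gene, had 71469 and 68819 in overexpression libraries, against 83055 and 83608.5 in control libraries (-0.25, adjusted p = 0.0029, limma). The HSP90 co-chaperones *sti-1* and *cdc-37* had log2 fold changes of -0.47 and -0.45, and *unc-45*, the myosin chaperone, -0.28. *hsp-70*, a heat-induced HSP70 gene, fell by 0.29, the DnaJ genes *dnj-13* and *dnj-19* by 0.24 and 0.35, and *hsp-6*, the mitochondrial HSP70, by 0.35. *pqm-1*, a zinc finger factor of stress and metabolism, rose by 0.59 (1227 and 1365 normalized reads in overexpression libraries, against 821 and 899 in control libraries). *hsf-1*, the heat shock factor, had 1652 and 1718 in overexpression libraries, against 1681 and 1736 in control libraries, with a log2 fold change of -0.02.

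These calls were lost together with those of *sip-1* and *hsp-12.6*: of the 23 genes, 0 passed with either control library left out, with no mean trend in limma, with no filter or with all 6 libraries in one fit. Over all genes, only 3 passed with no mean trend, 0 with no filter and 13 with all 6 libraries in one fit. In knockout 0 of the 23 genes passed with limma, edgeR or DESeq2. At an unadjusted p under 0.05 in limma there were 7, beside 11% of all genes tested. The median log2 fold change of the 23 was -0.11. Of the 3 heat-induced HSP70 genes of the list, *F44E5.4* and *F44E5.5* did not pass in either comparison. In knockout *F44E5.4* had 102 and 49.0 normalized reads, against 67.6 and 76.7 in control libraries, and *F44E5.5* had 133 and 66.6, against 88.4 and 104.6 in control libraries. In both the first knockout library was the highest and the second the lowest of the 4. *hsp-70* did not have this order, with 5542 and 4467 in knockout libraries, against 6309 and 6474 in control libraries, so that both knockout libraries lay below both controls.

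**Figure D5:**
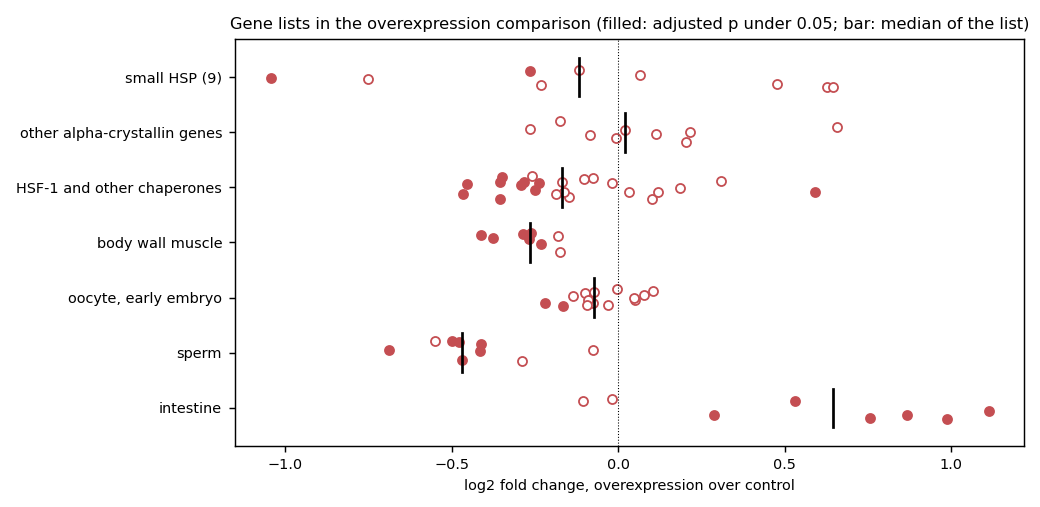
Log2 fold change of overexpression over control for the 9 genes and for 6 lists of genes, 1 point per gene (vertical position within a row is arbitrary). Filled points passed an adjusted p of 0.05 and black bars are list medians, which were -0.12 for the 9 genes, 0.02 for the other alpha-crystallin genes and -0.17 for HSF-1 and other chaperones.

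Across the 6 libraries, put on one scale with the controls counted once, the summed *hsp-16* reads were followed most closely by 5 genes outside the family. Over 15560 genes tested in both tables, *mbtr-1* had the highest Pearson correlation of log2 values with that sum (r = 0.998), followed by *abi-1* (0.995), *F42A8.3* (0.994), *oma-2* (0.994) and *F32D1.6* (0.994). *oma-2*, an oocyte maturation gene, had 6476 and 7113 normalized reads in overexpression libraries, 9046 and 4825 in knockout libraries, and 6542 and 6606 in control libraries. Among the family, *hsp-17* had r = 0.89, *sip-1* 0.45, *hsp-43* -0.28, *hsp-12.3* -0.59 and *hsp-12.6* -0.84. *hsf-1* had 0.83, which ranked 893rd of the 15560 genes, on values of only 1510 to 1741 normalized reads. The 23 genes of the heat shock factor list ran from -0.87 (*daf-16*) to 0.93 (*F44E5.4*). The 6 points come in 3 groups of 2 and are spread mostly by the knockout libraries, so these values are a description and carry no p.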

How the data were processed

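RNA of whole worms was sequenced in 6 libraries, 2 for each of 3 groups. The authors' processing notes name HISAT2, featureCounts and DESeq2, with no versions; strand and multi-mapping settings and the build are not given in the sources used here. The deposited signal is the number of reads on a gene divided by a size factor of the library, in one table for overexpression and one for knockout, which were scaled separately. Multiplied by one factor per library, 100% of the values came out as whole reads (tolerance 0.001), and the control reads of the 21498 genes in both tables were the same. The authors' fold changes and p-values in the tables were not used.

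For each comparison, log2(normalized reads + 1) of its 4 libraries was fitted with limma 3.58.1 (R 4.3.3) with a mean trend. The test covered genes that reached 10 normalized reads in 2 or more libraries (15918 and 15749), with Benjamini-Hochberg adjustment over all of them. A gene was called when its adjusted p was under 0.05 and it differed by 2-fold or more (1 on the log2 scale), the limit of the methods. "Fell" and "rose" mean an adjusted p under 0.05. Alternatives were edgeR 4.0.16 and DESeq2 1.42.0 on the recovered reads, TMM scaling, other filters, pseudocount and fits, summed *hsp-16* reads, and each library left out. Only the limma fit was tested on simulated data. The planted changes were larger than those of the 9 genes, in genes above a minimum of reads, with the same spread set for every gene and library. It therefore does not check the calls of low or weakly changed genes. The text names the 9 genes, *hlh-30*, list genes past the adjusted p, neighbouring genes and the 5 genes most like the summed *hsp-16* reads; *rol-6* was also singled out, and so were list genes that did not pass, such as *F44E5.4*, after their values were seen. The members and the gene lists were chosen with earlier results of these data known. Gene positions come from Ensembl 115 (WBcel235). No promoter or protein sequence was used here, so the planned motif search was not run.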

Additional observations from a re-analysis of the deposited data

How the results depend on the processing

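In overexpression, 296 genes were called, with 180 under DESeq2, 12 with all 6 libraries in one fit, 3 with no mean trend, 0 with no filter (limma; 4515 at an unadjusted p under 0.05), 533 at an unadjusted p with the 2-fold limit, and 0 to 429 with one library left out. The 2351 genes past the adjusted p alone became 13 with all 6 libraries, 3 with no trend and 0 with no filter, and 0 to 2929 with one library left out; leaving out control replicate 1 or 2 gave 0 (2540 and 3074 at an unadjusted p under 0.05). The 1 member called, *hsp-12.6*, became 0 with all 6 libraries, no trend or no filter, and 0 to 2 with one library left out, the 2 being *hsp-12.6* and *hsp-12.3* without overexpression replicate 1. Over its 10 other settings the adjusted p of *hsp-12.6* ranged from 0.00655 to 0.516 and that of *sip-1* from 0.000174 to 0.330, and each passed in 7 of the 10. In knockout, the 2 genes called (2 past the adjusted p) became 58 (119) under DESeq2, 0 (0) with no trend (1564 at an unadjusted p under 0.05), 1 (1) with no filter, 306 at an unadjusted p with the 2-fold limit, and 0 to 533 (0 to 4080) with one library left out; the 0 members called became 0 to 1. *hsp-16.2* in knockout turned from -0.08 to 0.0138 under DESeq2 and 0.0251 under edgeR. The causes of these changes were not tested. Fits with a library left out hold fewer samples, and each takes its spread from the group that kept both libraries.

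With one library left out, the sign turned for *hsp-16.41* in overexpression (-0.027 to 0.16) and in knockout for *hsp-16.1* (-0.39 to 0.74), *hsp-16.2* (-0.61 to 0.45), *hsp-16.41* (-0.58 to 0.83), *hsp-12.3* (-0.44 to 0.53), *hsp-12.6* (-1.77 to 0.60) and *hsp-43* (-0.21 to 0.062). No label says that replicate numbers pair overexpression with control libraries, and same-numbered libraries deviated together with a correlation of 0.0273 over 15918 genes. With the replicate number as a block, 365 genes were called, 2920 passed the adjusted p and 1 member was called, and *hsp-12.3* passed the adjusted p (0.0187). No paired analysis was possible for knockout because its columns carry no replicate numbers that match the labels. With 2 libraries a group and 19 to 79 reads on the inverted-repeat *hsp-16* genes, log2 differences of 0.48 to 0.65 in overexpression, with SE of 0.28 to 0.39, did not pass, and the SE in knockout were 0.36 to 0.47.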
